A study of Bos taurus with 8 samples.

Results

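The genes described here are the metalloproteases of the ADAM, ADAMTS and MMP families, the related ADAMTSL proteins and the TIMP inhibitors of these enzymes. They were taken by name: a probe counted where its gene name began with ADAM, MMP or TIMP and a number, or with ADAMTS. This gave 65 genes with 136 probes, out of 16523 named genes and 43653 probes that are not controls. A gene was measured where at least 1 of its probes was well above background on 2 or more of the 8 arrays, and its brightest such probe stood for it. That left 43 of the 65 genes, beside 12609 genes over the whole array. They were 10 of 22 ADAM genes, 12 of 17 ADAMTS genes, 3 of 3 ADAMTSL genes, 14 of 19 MMP genes and 4 of 4 TIMP genes.

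The cells were primary bovine mammary epithelial cells at the fifth passage, grown from mammary tissue of 1 lactating Holstein cow, and RNA levels were read on one-colour Agilent arrays. EEF1D, which encodes the delta subunit of the translation elongation factor 1 complex, was targeted with either of a pair of short hairpin RNAs (shRNAs). The groups were EEF1D-1357 shRNA (3 arrays), EEF1D-1893 shRNA (3 arrays) and control cells without shRNA (2 arrays). The labels do not say whether the controls carried another construct, nor whether the replicates were separate cultures, and the p-values therefore cover only the spread seen among the arrays. Every level below is a scaled log2 signal, the log2 intensity of a probe minus the 75th percentile of its array. Levels are compared between arrays for 1 probe. Levels of different probes are set together only in the choice of the brightest probe and of the members of highest mean signal, and in the summed cell type markers.

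Matrix metalloproteases (MMPs) are zinc enzymes that are made with an inhibitory prodomain and, once activated, cut collagens, laminins and other matrix proteins. ADAM proteins are membrane-anchored relatives, several of which release growth factors and receptors from the cell surface, while the secreted ADAMTS enzymes cut proteoglycans and procollagens. The TIMPs block the active site of these enzymes. In the mammary gland they are known for their part in duct branching and in the remodelling of the gland at involution.

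EEF1D read 5.98, 5.86 and 5.10 with EEF1D-1357, 5.99, 5.74 and 5.77 with EEF1D-1893, and 7.12 and 6.15 in the controls. All 6 shRNA arrays lay below both controls, by a log2 fold change of -0.89 (SE 0.32, limma, adjusted p = 0.242). Without control replicate 1 that value was -0.41, and without control replicate 2 it was -1.38. Per the file headers there were 2 slides, and each held all arrays of 1 hairpin and a single control: replicate 2 beside EEF1D-1357 on slide 1, and replicate 1 beside EEF1D-1893 on slide 2. Between 60.6% and 71.5% of probes on an array were well above background, and no spot was saturated. Control replicate 1 stood apart. Its 75th percentile of intensity was 1269, against 1605 to 2091 on the other arrays, and it held the highest value of 39.2% of all genes and of 15 of the 43 members (34.9%). Its level enters every comparison with the controls below. Without it the difference between both shRNAs and control changed sign in 13 of the 43 members, and without control replicate 2 it did so in 12.

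No member passed the test in any comparison at an adjusted p under 0.05 over all genes (limma), and neither did any of the 12609 genes (0.0% in each comparison). Those counts rest on control replicate 2: without it 9 members passed for both shRNAs, 13 for EEF1D-1357 and 4 for EEF1D-1893, where 23.2%, 23.1% and 14.6% of all genes passed. With slide as a block, 2 members passed for both shRNAs (ADAM9 and ADAMTS12) and 4 for EEF1D-1893 (these 2 with ADAMTS3 and ADAMTS4), where 5.51% and 14.6% of all genes passed. That fit sets each hairpin against the 1 control on its slide, and for EEF1D-1893 it is the same comparison as leaving out control replicate 2. At an unadjusted p under 0.05, 3 members were higher and 4 lower with both shRNAs than in the controls, where 7.27% of all genes were higher and 9.66% lower. For EEF1D-1357 against control the counts were 4 higher and 4 lower, beside 6.21% and 10.0% of all genes. For EEF1D-1893 against control they were 1 higher and 3 lower, beside 6.72% and 7.44%. Between the hairpins, 6 members were higher with EEF1D-1357 and 2 were lower, beside 2.59% and 3.81% of all genes. The median log2 fold change of the members was -0.21 for both shRNAs against control, where all genes had -0.07. The 2 comparisons of a single hairpin with control share both control arrays.

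**Figure D1:**
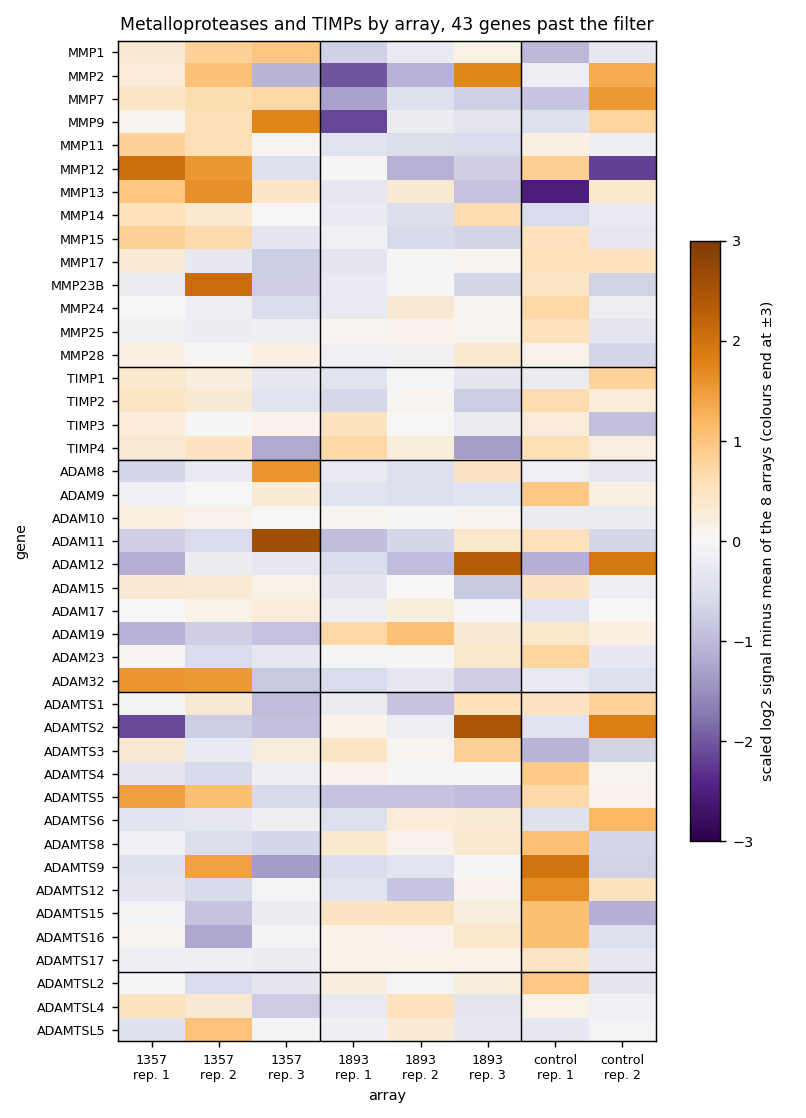
Scaled log2 signal of each measured member on each array (x axis: array, y axis: gene), as the difference from its mean over the 8 arrays, with orange above and purple below that mean. Control replicate 1 is the highest array for 15 of 43 members, 7 of them ADAMTS genes, while the upper MMP rows are mostly orange in the EEF1D-1357 columns.

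Of the 14 measured MMP genes, 11 had a higher mean with EEF1D-1357 than with EEF1D-1893, and the median difference was 0.77 on the log2 scale, while the median over all genes was -0.05. In 5 of the 14 all EEF1D-1357 arrays lay above all EEF1D-1893 arrays, and in 1 all lay below. Over all genes 6.78% were apart in the upward direction and 14.7% in the downward one. The median for MMP genes was 0.48 after another background correction, 0.86 after quantile normalization and 0.84 after scaling by the median, so its sign did not turn with the scaling. Because each hairpin had a slide of its own, the hairpin and the slide cannot be told apart in this comparison. With each hairpin first set against the control on its slide, the median was 0.55 and 10 of 14 genes were higher with EEF1D-1357. That does not separate them either, since the slide and the single control array on it cannot be told apart. Against control, 10 of 14 MMP genes had a higher mean with EEF1D-1357 (median 0.43) and 6 of 14 with EEF1D-1893 (median -0.20).

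Among the collagenases, which open the triple helix of fibrillar collagen, MMP1 had the more regular pattern. It read 3.60, 4.06 and 4.23 with EEF1D-1357, 2.55, 3.02 and 3.41 with EEF1D-1893, and 2.25 and 2.96 in the controls. All 3 EEF1D-1357 arrays were above both controls and above all EEF1D-1893 arrays, while EEF1D-1893 overlapped the controls. The fold over control was 2.57 for EEF1D-1357 (log2 1.36, SE 0.33, adjusted p = 0.201) and 1.31 for EEF1D-1893 (log2 0.39, SE 0.33, adjusted p = 0.621). Without control replicate 1 the log2 values were 1.01 for EEF1D-1357 and 0.041 for EEF1D-1893, and without control replicate 2 they were 1.71 for EEF1D-1357 and 0.75 for EEF1D-1893. Between the hairpins the log2 difference was 0.97 (SE 0.30, adjusted p = 0.749). In bulk RNA, more cells that express a gene and more RNA per cell cannot be told apart, here or for any other gene.

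MMP1 was measured by 3 probes, and all 3 gave the same order of groups. A pair of them overlap on chromosome 15 (4792583 to 4792641 and 4792604 to 4792663), so these do not read separate stretches of the gene. The mean of both shRNAs was above control by 0.88 to 1.13, and EEF1D-1357 was above EEF1D-1893 by 0.90 to 1.11. The third probe is shown because its ends on the genome lie further apart than its length, as they do for a probe that spans a junction of exons. It maps to chromosome 15, 4762221 to 4763283, on the plus strand of the Btau 3.1 assembly, the build of all coordinates here.

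MMP1 probe A_73_P101186: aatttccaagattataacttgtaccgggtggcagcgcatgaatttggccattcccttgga

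The other collagenase, MMP13, was dim. It read -4.64, -3.99 and -5.17 with EEF1D-1357, -5.93, -5.27 and -6.52 with EEF1D-1893, and -8.15 and -5.23 in the controls, and it was well above background on 4 of the 8 arrays. The EEF1D-1357 arrays lay above all EEF1D-1893 arrays and above both controls. Both shRNAs together gave 1.44 over control on the log2 scale (SE 0.74, adjusted p = 0.361), and -0.019 without control replicate 1.

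MMP2 and MMP9 are the gelatinases, which cut denatured collagen and collagen IV of basement membranes. MMP9 read 0.70, 1.20 and 2.41 with EEF1D-1357, -1.50, 0.43 and 0.26 with EEF1D-1893, and 0.18 and 1.40 in the controls. Both hairpins overlapped the controls, but the EEF1D-1357 arrays were all above the EEF1D-1893 arrays, by a log2 difference of 1.71 (SE 0.66, adjusted p = 0.749), a fold of 3.27. All 3 usable MMP9 probes had this direction, with differences of 1.37 to 1.93. MMP2 varied within each group: it read -1.05, -0.28 and -2.37 with EEF1D-1357, -3.33, -2.41 and 0.42 with EEF1D-1893, and -1.48 and 0.00 in the controls. Its log2 fold change for both shRNAs was -0.76 (SE 1.02, adjusted p = 0.722), smaller than its error.

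The matrilysin MMP7, a short MMP made by glandular epithelium, read -0.30, -0.12 and -0.04 with EEF1D-1357, -2.06, -1.21 and -1.48 with EEF1D-1893, and -1.61 and 0.77 in the controls. The hairpins did not overlap (log2 difference 1.43, SE 0.56, adjusted p = 0.749), whereas the controls lay on either side of the EEF1D-1357 arrays. MMP11, or stromelysin 3, which furin activates inside the cell, read -1.06, -1.29 and -1.80 with EEF1D-1357, -2.28, -2.36 and -2.42 with EEF1D-1893, and -1.68 and -2.02 in the controls. The hairpins were again apart, by 0.97 (SE 0.21, adjusted p = 0.749), but a second MMP11 probe gave 0.03. The metalloelastase MMP12 read -0.56, -1.06 and -3.06 with EEF1D-1357, -2.57, -3.72 and -3.35 with EEF1D-1893, and -1.76 and -4.81 in the controls, so that the groups overlapped and the controls lay furthest apart.

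MMP1, MMP3, MMP7, MMP12, MMP13, MMP20 and MMP27 are neighbours on chromosome 15, where the probes of these 7 genes span 561 kb, between 4620591 and 5181827. The 4 measured genes, MMP13, MMP12, MMP1 and MMP7, had means that were higher with EEF1D-1357 than with EEF1D-1893, by log2 differences of 1.31, 1.65, 0.97 and 1.43. MMP13 was well above background on 2 EEF1D-1357 arrays and 1 EEF1D-1893 array, so its difference includes background signal. Their levels in the controls did not run together: control replicate 1 was lower than control replicate 2 for MMP1, MMP13 and MMP7, and higher for MMP12. Control replicate 2 shared the slide of EEF1D-1357, and control replicate 1 that of EEF1D-1893. For MMP1, MMP13 and MMP7 the controls thus differed between the slides in the same direction as the hairpins. For MMP13 and MMP7 they differed by more than the hairpins did. The hairpin and the slide cannot be told apart here. The other 3 genes of the cluster were not measured. MMP3 had 1 of its 4 probes well above background on 1 array, and MMP20 and MMP27 had none.

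Of the membrane-anchored MMPs, MMP14, the collagenase of the cell surface and an activator of pro-MMP2, read -0.37, -0.55 and -0.89 with EEF1D-1357, -1.17, -1.41 and -0.28 with EEF1D-1893, and -1.47 and -1.15 in the controls. EEF1D-1357 was above both controls on every array and EEF1D-1893 overlapped them (both shRNAs against control, log2 0.53, SE 0.31, adjusted p = 0.407). MMP17, held at the membrane by a lipid anchor, read -4.43, -5.03 and -5.49 with EEF1D-1357, -5.09, -4.78 and -4.66 with EEF1D-1893, and -4.18 and -4.20 in the controls. All 6 shRNA arrays lay below both controls (log2 -0.72, SE 0.27, adjusted p = 0.257), and the value was -0.71 without control replicate 1 and -0.73 without control replicate 2. MMP17 was well above background on 6 of 8 arrays. MMP15, MMP23B, MMP24, MMP25 and the secreted MMP28 overlapped the controls in every comparison with them, with log2 fold changes for both shRNAs between -0.35 and 0.36.

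**Figure D2:**
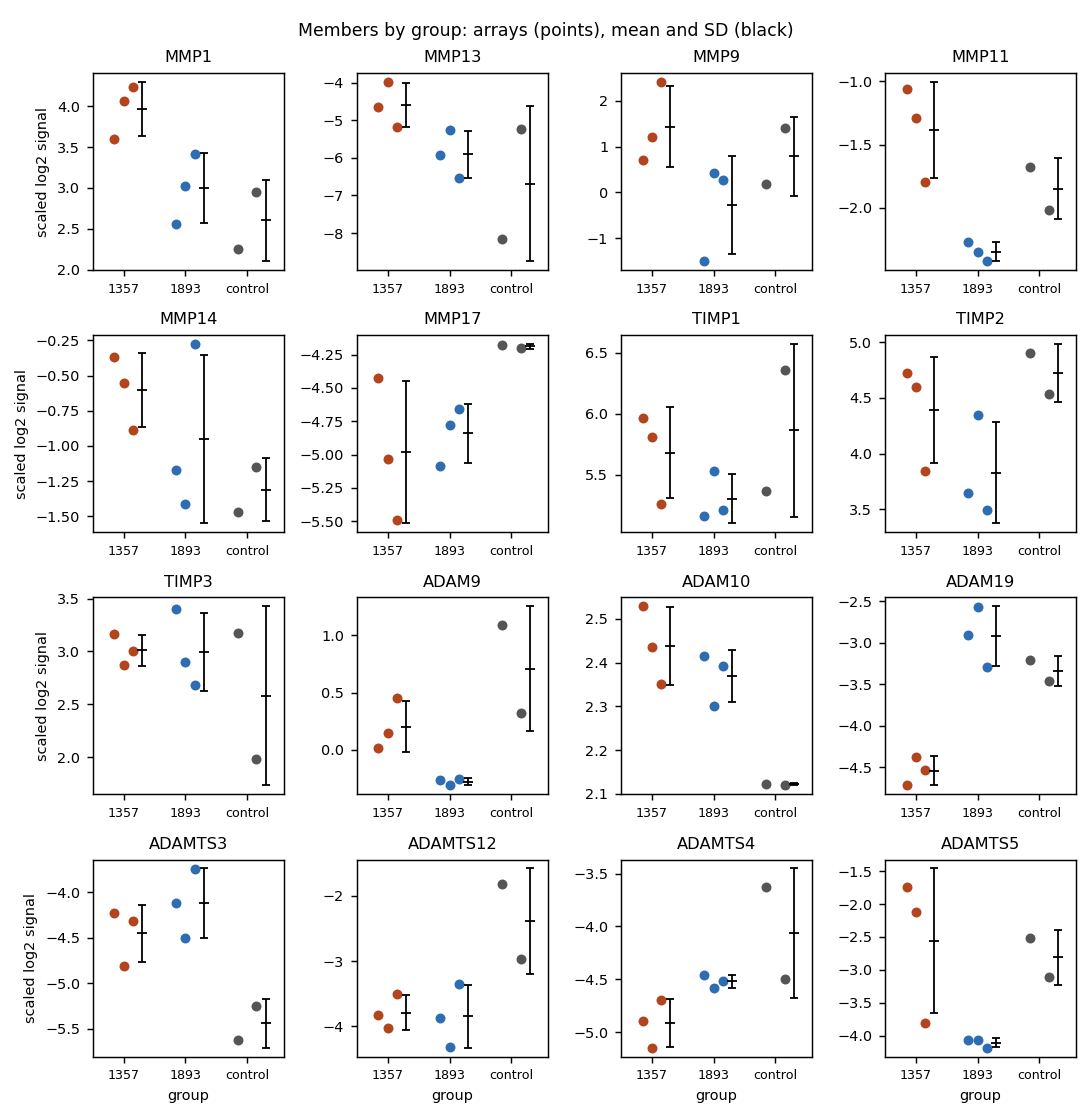
Scaled log2 signal (y axis) of 16 members in the EEF1D-1357, EEF1D-1893 and control arrays (x axis), with each point an array and the black mark the mean with its SD. The EEF1D-1357 points of MMP1, MMP9 and MMP11 lie above all EEF1D-1893 points, and the control points of ADAMTS12 lie above and those of ADAMTS3 below all shRNA points.

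TIMP1, a secreted inhibitor of most MMPs, read 5.97, 5.81 and 5.26 with EEF1D-1357, 5.16, 5.53 and 5.21 with EEF1D-1893, and 5.36 and 6.36 in the controls. TIMP2, which also forms the complex through which MMP14 activates pro-MMP2, read 4.73, 4.60 and 3.85 with EEF1D-1357, 3.64, 4.34 and 3.49 with EEF1D-1893, and 4.90 and 4.54 in the controls. For TIMP2 the EEF1D-1893 arrays were all below both controls and the EEF1D-1357 arrays overlapped them. The log2 fold change of TIMP2 was -0.33 for EEF1D-1357 (SE 0.35, adjusted p = 0.633) and -0.89 for EEF1D-1893 (SE 0.35, adjusted p = 0.335), and for both shRNAs together its 3 probes lay between -0.61 and -0.59. The fold change of TIMP1 was -0.37 (SE 0.30, adjusted p = 0.542) and became 0.13 without control replicate 2. Between the hairpins the log2 difference was 0.38 for TIMP1 (SE 0.30, adjusted p = 0.778) and 0.56 for TIMP2 (SE 0.31, adjusted p = 0.750).

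TIMP3, which binds to the matrix and also inhibits ADAM17 and the proteoglycan-cutting ADAMTS enzymes, read 3.16, 2.87 and 3.01 with EEF1D-1357, 3.40, 2.90 and 2.68 with EEF1D-1893, and 3.18 and 1.98 in the controls. The controls of TIMP3 lay further apart than all 6 shRNA arrays did (log2 0.42, SE 0.33, adjusted p = 0.521), with -0.18 without control replicate 2. TIMP4 was dim: it read -5.57, -5.42 and -7.11 with EEF1D-1357, -5.20, -5.66 and -7.24 with EEF1D-1893, and -5.31 and -5.69 in the controls. No EEF1D-1893 array had TIMP4 well above background, against 1 EEF1D-1357 array and 1 control array.

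The ADAM sheddases had small differences for the most part. ADAM10, which cuts Notch receptors and E-cadherin, read 2.53, 2.44 and 2.35 with EEF1D-1357, 2.41, 2.30 and 2.39 with EEF1D-1893, and 2.12 in both controls. Every shRNA array was above the controls (log2 0.28, SE 0.11, adjusted p = 0.280), but the other ADAM10 probes gave -0.03 and -0.17. ADAM17, which releases TNF and ligands of the EGF receptor such as amphiregulin, read 1.30, 1.47 and 1.58 with EEF1D-1357, 1.13, 1.56 and 1.24 with EEF1D-1893, and 0.90 and 1.32 in the controls. The groups of ADAM17 overlapped (log2 0.27, SE 0.18, adjusted p = 0.460).

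ADAM9, a sheddase of epithelial and other cells, read 0.01, 0.14 and 0.45 with EEF1D-1357, -0.27, -0.31 and -0.26 with EEF1D-1893, and 1.09 and 0.32 in the controls. The EEF1D-1893 arrays lay below both controls, and EEF1D-1357 overlapped the lower one. For both shRNAs the log2 fold change was -0.75 (SE 0.22, adjusted p = 0.197), with -0.36 without control replicate 1 and -1.13 without control replicate 2. A second ADAM9 probe gave 0.23. ADAM9 and ADAM17 are the sheddases whose probes gave differences of opposite sign and of some size: for ADAM17, 3 probes lay between 0.27 and 0.46 and the fourth at -0.48. The probes that gave the lower values are shown because the probes of these genes gave opposite signs. The ADAM9 probe lies on chromosome 27, 36506569 to 36506628, and the ADAM17 probe on chromosome 11, 90718901 to 90718958, both on the plus strand.

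ADAM9 probe A_73_P101021: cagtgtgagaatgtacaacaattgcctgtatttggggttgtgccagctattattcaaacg
ADAM17 probe A_73_P307601: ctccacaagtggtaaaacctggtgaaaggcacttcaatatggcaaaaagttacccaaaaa

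ADAM19, a sheddase of neuregulins, had the smallest adjusted p of any member between the hairpins. It read -4.72, -4.38 and -4.53 with EEF1D-1357, -2.91, -2.57 and -3.29 with EEF1D-1893, and -3.21 and -3.46 in the controls. All EEF1D-1357 arrays were below every other array, and EEF1D-1893 overlapped the controls. The log2 difference between the hairpins was -1.62 (SE 0.21, adjusted p = 0.387), and EEF1D-1357 against control gave -1.20 (SE 0.23, adjusted p = 0.157). Set against the control on the same slide, EEF1D-1357 was -1.08 and EEF1D-1893 was 0.29. ADAM19 had 1 usable probe, on the minus strand of chromosome 7 at 68879533 to 68879592, so its pattern could not be set beside another.

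ADAM19 probe A_73_P039386: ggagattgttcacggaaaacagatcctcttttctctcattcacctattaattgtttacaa

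The other ADAM genes were ADAM8, ADAM11, ADAM12, ADAM15, ADAM23 and ADAM32, with log2 fold changes for both shRNAs between -0.52 and 0.48 and adjusted p-values from 0.602 to 0.981. ADAM15, a disintegrin of cell junctions, was the one among them in which the hairpins were apart (log2 0.65, SE 0.25, adjusted p = 0.749). ADAM11 and ADAM23 are members whose metalloprotease domain is known to be inactive. ADAM32 was well above background on 2 of 3 EEF1D-1357 arrays and on no EEF1D-1893 array. EEF1D-1357 replicate 3, at -6.11, was lower than all others, so the hairpins overlapped.

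**Figure D3:**
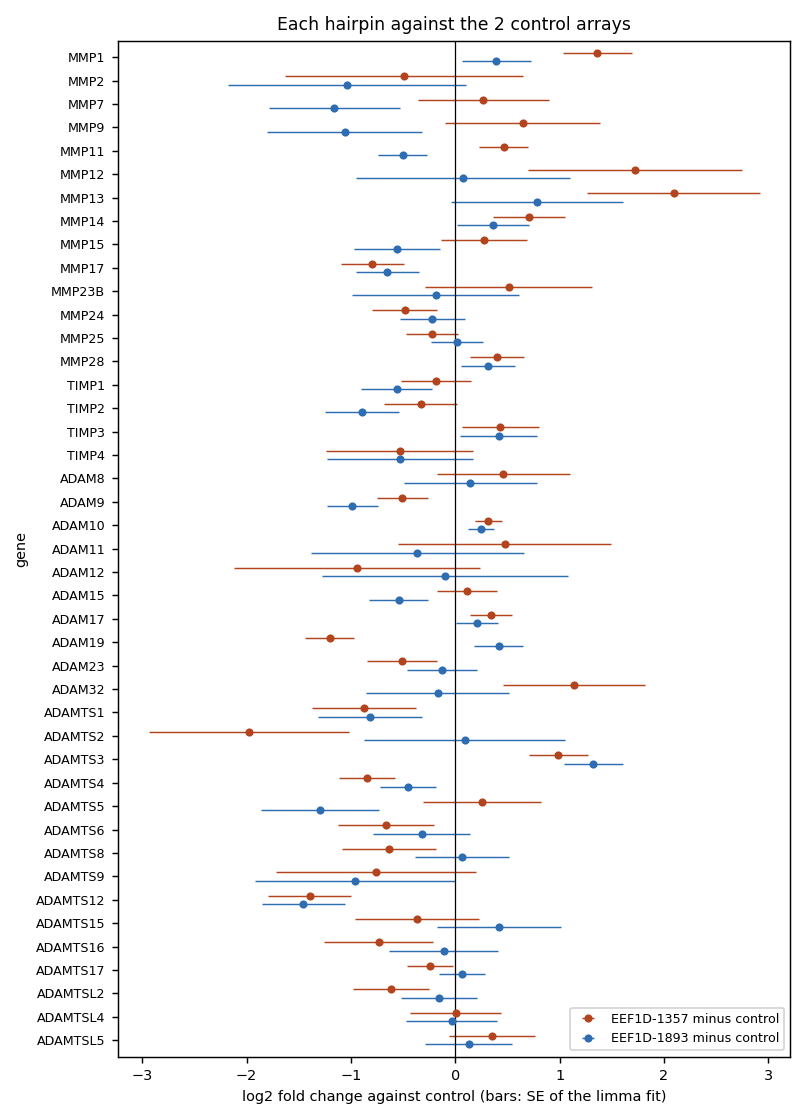
Log2 fold change against control (x axis) of each measured member (y axis) for EEF1D-1357 and for EEF1D-1893, with bars for the SE of the limma fit. Both hairpins lie on the same side for ADAMTS3 and ADAMTS12, while ADAM19, MMP7, MMP9 and ADAMTS5 have EEF1D-1357 and EEF1D-1893 on opposite sides of 0. For ADAMTS5 this holds for the brightest probe, which is plotted, and not for its second probe.

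ADAMTS genes were mostly lower with the shRNAs, and that depended on control replicate 1. Of the 12 measured, 10 had a lower mean with both shRNAs (median -0.51), but without control replicate 1 the count was 6 of 12 (median 0.04) and without control replicate 2 it was 9 of 12 (median -0.95). ADAMTS3 and ADAMTS12 were the 2 ADAMTS genes in which the shRNA arrays and the controls did not overlap, in opposite directions. Over the 43 members 2 genes were apart in each direction, ADAM10 and ADAMTS3 higher and MMP17 and ADAMTS12 lower, beside 7.66% and 9.26% of all genes.

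ADAMTS3, which removes the amino propeptide of procollagen and takes part in the activation of VEGF-C, had the smallest adjusted p of the members for both shRNAs. It read -4.23, -4.81 and -4.32 with EEF1D-1357, -4.11, -4.50 and -3.74 with EEF1D-1893, and -5.63 and -5.25 in the controls. Every shRNA array was above both controls. The fold over control was 2.23 (log2 1.16, SE 0.25, adjusted p = 0.153), with 1.98 for EEF1D-1357 and 2.50 for EEF1D-1893. Without control replicate 1 the log2 value was 0.97, and without control replicate 2 it was 1.34. A second ADAMTS3 probe gave 0.97 for both shRNAs, and a further one was well above background on 1 array and was not used. The 2 usable probes are shown because they read separate stretches of the gene, on the minus strand of chromosome 6: the first lies at 90346277 to 90346336 and the second at 90346741 to 90346800.

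ADAMTS3 probe A_73_112345: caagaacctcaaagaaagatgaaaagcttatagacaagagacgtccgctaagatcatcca
ADAMTS3 probe A_73_P115381: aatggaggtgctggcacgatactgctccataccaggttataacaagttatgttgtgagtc

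ADAMTS12, a protease of cartilage oligomeric matrix protein, read -3.82, -4.03 and -3.51 with EEF1D-1357, -3.88, -4.31 and -3.36 with EEF1D-1893, and -1.82 and -2.96 in the controls. All shRNA arrays lay below both controls, and the hairpins were at the same level (difference 0.06, SE 0.36). The fold against control was 0.372 (log2 -1.43, SE 0.36, adjusted p = 0.159), and the log2 value was -0.85 without control replicate 1 and -2.00 without control replicate 2. It rests on 1 usable probe, on the plus strand of chromosome 20 at 42688265 to 42688324, and is shown for that reason.

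ADAMTS12 probe A_73_P113551: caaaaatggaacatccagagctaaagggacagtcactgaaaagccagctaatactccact

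The aggrecanases and versicanases cut large proteoglycans. ADAMTS1, ADAMTS4, ADAMTS5 and ADAMTS9 had lower means with both shRNAs than in the controls, by log2 values of -0.85, -0.65, -0.52 and -0.86, and none passed the test. ADAMTS1 read 1.86, 2.29 and 0.97 with EEF1D-1357, 1.72, 1.05 and 2.50 with EEF1D-1893, and 2.43 and 2.73 in the controls. The EEF1D-1357 arrays of ADAMTS1 were below both controls and 1 EEF1D-1893 array was not (log2 -0.85, SE 0.45, limma, adjusted p = 0.370). Its 3 usable probes gave -0.91 to -0.36 for both shRNAs, but from -0.05 to 1.54 between the hairpins. On the probe with 1.54, EEF1D-1357 replicate 3 read -1.17, above both controls (-3.39 and -3.89). ADAMTS4 read -4.89, -5.15 and -4.70 with EEF1D-1357, -4.46, -4.59 and -4.52 with EEF1D-1893, and -3.63 and -4.50 in the controls. Its EEF1D-1357 arrays were below both controls, and its log2 fold change for both shRNAs of -0.65 (SE 0.24, adjusted p = 0.249) was -0.22 without control replicate 1 and -1.08 without control replicate 2.

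ADAMTS5 read -1.74, -2.12 and -3.80 with EEF1D-1357, -4.07, -4.07 and -4.18 with EEF1D-1893, and -2.52 and -3.10 in the controls. All EEF1D-1893 arrays were below every other array, while the EEF1D-1357 arrays lay on both sides of the controls. Between the hairpins the log2 difference was 1.55 (SE 0.50, adjusted p = 0.749), a fold of 2.94, and a second probe gave 1.76. EEF1D-1893 against control was -1.30 (SE 0.56, limma, adjusted p = 0.362), and EEF1D-1357 against control was 0.26. On the second probe these values were -2.18 and -0.41, so there both hairpins had means below control.

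For 6 of the 12 ADAMTS genes all EEF1D-1357 arrays lay below all EEF1D-1893 arrays: ADAMTS2, ADAMTS4, ADAMTS8, ADAMTS15, ADAMTS16 and ADAMTS17. Of these, ADAMTS2, ADAMTS8 and ADAMTS16 were well above background on no EEF1D-1357 array and on 1 EEF1D-1893 array each. Over all 43 members 9 were apart in this direction and 8 in the other, beside 14.7% and 6.78% of all genes. The median of the ADAMTS genes between the hairpins was -0.34, and it became 0.70 when each hairpin was set against the control of its slide, where the slide and the single control array on it cannot be told apart. ADAMTS6, ADAMTS8, ADAMTS9, ADAMTS15, ADAMTS16 and ADAMTS17 overlapped the controls in every comparison with them, with log2 fold changes for both shRNAs between -0.86 and 0.03. Without control replicate 1 those values were -1.30 for ADAMTS6, 0.56 for ADAMTS8, 0.47 for ADAMTS9, 1.14 for ADAMTS15, 0.35 for ADAMTS16 and 0.29 for ADAMTS17. On control replicate 2, the control left in, ADAMTS8 read -6.56, ADAMTS9 -5.67, ADAMTS15 -6.09 and ADAMTS16 -6.32. The lowest value well above background on that array was -5.37, so for these genes the values are set against background signal. ADAMTS2 was well above background on 1 EEF1D-1893 array, 1 control and no EEF1D-1357 array. The ADAMTS-like proteins, which lack a protease domain, overlapped the controls in every comparison too. ADAMTSL4, a protein of fibrillin microfibrils, read 3.10, 2.93 and 1.79 with EEF1D-1357, 2.31, 3.13 and 2.26 with EEF1D-1893, and 2.74 and 2.46 in the controls, and its log2 fold change of -0.02 (SE 0.39, adjusted p = 0.987) was small beside its error.

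**Figure D4:**
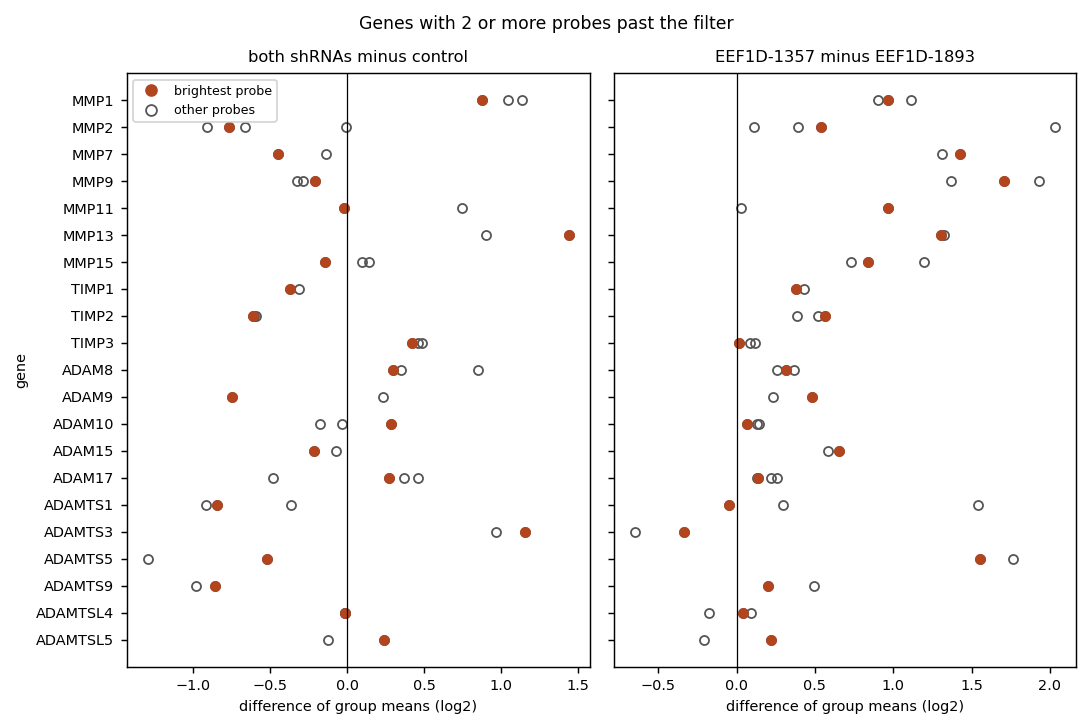
Differences of group means (x axis, log2) for every usable probe of the 21 members with 2 or more (y axis: gene), for both shRNAs minus control on the left and EEF1D-1357 minus EEF1D-1893 on the right, with the brightest probe filled. Probes of ADAM9, ADAM17 and MMP11 spread across 0 on the left, while those of MMP1, MMP7, MMP9, MMP13 and ADAMTS5 keep together on the right.

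How far a direction held over probes could be read for 21 genes. For both shRNAs against control, all usable probes had the same sign in 15 and differing signs in 6, namely ADAM9, ADAM10, ADAM17, ADAMTSL5, MMP11 and MMP15. Between the hairpins they had the same sign in 18, all but ADAMTS1, ADAMTSL4 and ADAMTSL5. Probes of 1 gene share their arrays, so this does not add replicates.

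Several members were high on the same few arrays irrespective of group. For 5 members, ADAM12, ADAMTS1, ADAMTS2, ADAMTS6 and MMP2, the highest values were those of EEF1D-1893 replicate 3 and control replicate 2, a pair that was highest in 3.39% of all genes and in 11.6% of the members. ADAM12 read -4.50 and -4.93 on these arrays and -8.00 to -7.05 on the other 6, and ADAMTS2, a procollagen propeptidase, read -3.32 and -3.93 against -7.88 to -5.64. Both were well above background on these 2 arrays alone and passed the filter through them, so the filter fixed their place in that count. Some fibroblast markers were high on the same arrays: COL1A2 read 0.82 on EEF1D-1893 replicate 3 and 0.24 on control replicate 2, against -7.25 to -1.77 on the others. LUM read -1.82 and -2.14 on that pair, against -7.46 to -4.38, and THY1 read -3.70 and -4.80, against -6.76 to -5.32.

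The rest of the fibroblast list did not single out that pair. VIM, COL1A1, COL3A1 and DCN were well above background on all 8 arrays with their highest value on control replicate 1, and FAP was highest on EEF1D-1893 replicate 3 with control replicate 1 next. Of the 10 listed fibroblast markers 9 were measured, all but PDGFRB, and their summed level was 107 to 148 times the 75th percentile with EEF1D-1357, 126 to 155 with EEF1D-1893 and 116 to 231 in the controls. VIM made up most of that sum, and without it the sum was 1.33 to 1.54 with EEF1D-1357, 1.65 to 3.96 with EEF1D-1893 and 2.29 to 2.86 in the controls. Among 8 basal markers 3 also read highest on that pair. KRT14, a keratin, read 6.41 on EEF1D-1893 replicate 3 and 6.92 on control replicate 2, against 0.21 to 5.26 elsewhere. The actin ACTA2 read 4.75 and 4.90, against 3.34 to 4.53, and the transcription factor TP63 read -3.77 and -3.56, against -4.78 to -4.01. KRT5, KRT17 and CNN1 had their highest value on neither array of that pair. MYLK and OXTR were highest on control replicate 2 with control replicate 1 next, so both controls lay above every shRNA array. MYLK read -0.99 and 0.56 in the controls, against -4.83 to -1.54 on the shRNA arrays. OXTR read -4.42 and -4.39 in the controls, against -7.15 to -5.67. The summed basal level was 191 to 219 with EEF1D-1357, 151 to 322 with EEF1D-1893 and 295 to 309 in the controls. The part of cell composition in the members' differences was not tested. Of 9 luminal markers 8 were measured, all but ELF5, and these were well above background on every array. All 8 basal markers were measured, and 7 were so on every array, while OXTR was so on 2. Leukocyte markers were measured in 6 of 10 cases (PTPRC, CD3D, CD68, CD14, ITGB2 and CD79A, each well above background on all 8 arrays, but not CD3E, CSF1R, ITGAM or CSF3R), with sums of 5.68 to 7.63 with EEF1D-1357, 4.72 to 6.28 with EEF1D-1893 and 5.77 to 8.09 in the controls. Endothelial markers were measured in 2 of 6 cases (VWF and CDH5), with sums of 0.128 to 0.209 with EEF1D-1357, 0.113 to 0.245 with EEF1D-1893 and 0.167 to 0.277 in the controls. Adipocyte markers were measured in 3 of 5 cases (PLIN1, FABP4 and CIDEC), with sums of 0.0503 to 0.538 with EEF1D-1357, 0.0904 to 0.538 with EEF1D-1893 and 0.0797 to 0.132 in the controls.

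**Figure D5:**
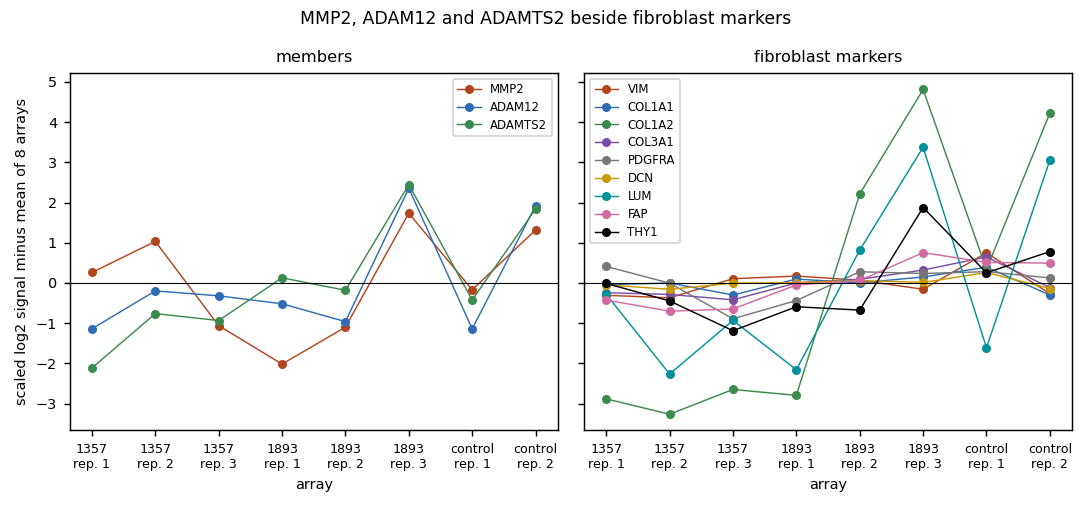
Scaled log2 signal minus its mean over 8 arrays (y axis) by array (x axis), for MMP2, ADAM12 and ADAMTS2 on the left and 9 fibroblast markers on the right. The 3 members and COL1A2 and LUM all peak on EEF1D-1893 replicate 3 and control replicate 2, where VIM, COL1A1 and DCN stay near their mean.

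A second pair of arrays was EEF1D-1357 replicates 1 and 2, which held the highest values of 7 members (16.3%), beside 7.17% of all genes. These were ADAM10, ADAM32, ADAMTS5, MMP11, MMP12, MMP13 and MMP15. ADAM32 was well above background on this pair and 1 control alone. It passed the filter only through the pair, so the filter bore on its place in that count. MMP13 was well above background on 4 arrays. For ADAM32, ADAMTS5, MMP11, MMP12 and MMP15 EEF1D-1357 replicate 3 lay below this pair by more than the pair differed: MMP15, a transmembrane MMP, read 1.66, 1.52 and 0.51.

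Genes around these enzymes were read from 6 lists, none of which had a member past the test. Of 15 measured genes of MMP activation and the plasminogen system, 1 was higher and 1 lower with both shRNAs at an unadjusted p under 0.05. Beside this count and those of the other lists stand the 7.27% of all genes that were higher and the 9.66% that were lower at that threshold. PLAUR, the urokinase receptor, had a log2 fold change of 0.89 (SE 0.26, limma, adjusted p = 0.196), PCSK7, a proprotein convertase, -0.45 (SE 0.16, adjusted p = 0.236), and the serine protease HPN -1.56 (SE 1.09, adjusted p = 0.482). HPN read -3.60 on EEF1D-1357 replicate 3 and -3.98 on control replicate 2, and -7.90 to -6.06 on the others. Its fold change therefore includes background signal. Among 10 regulators of ADAM proteins, 2 were lower and none higher: TSPAN33, a tetraspanin that binds ADAM10, had -0.72 (SE 0.22, adjusted p = 0.202) and NRDC, an enhancer of shedding, -0.35 (SE 0.14, adjusted p = 0.273). TSPAN17, from the same tetraspanin group, had 0.31 (SE 0.20, adjusted p = 0.453).

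Of 23 measured sheddase substrates 1 was higher and 1 lower by the same count. NRG1, a neuregulin, had -0.75 (SE 0.18, adjusted p = 0.155), and CXCL16, a membrane-bound chemokine, had 0.34 (SE 0.13, adjusted p = 0.257). The hyaluronan receptor CD44 had -0.49 (SE 0.22, adjusted p = 0.306). Of 23 matrix substrates 1 was higher, the basement membrane protein NID2 at 0.89 (SE 0.17, adjusted p = 0.144), and 1 lower, the laminin chain LAMA5 at -0.56 (SE 0.14, adjusted p = 0.157). Another laminin chain, LAMB1, had 0.32 (SE 0.17, adjusted p = 0.384).

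AP-1 and ETS transcription factors are known to act on promoters of MMP genes. Of the 14, 3 were lower and none higher at that threshold: ETV5 had -0.84 (SE 0.16, adjusted p = 0.144), JUND -0.44 (SE 0.16, adjusted p = 0.247) and FOSB -0.42 (SE 0.15, adjusted p = 0.236). Of 10 measured inducers of MMPs 2 were higher, the cytokine IL1A at 1.13 (SE 0.37, adjusted p = 0.222) and the chemokine CXCL8 at 2.33 (SE 0.54, adjusted p = 0.153), while the growth factor FGF2 had -0.41 (SE 0.19, adjusted p = 0.314). IL1A and CXCL8 had log2 fold changes of 1.46 and 2.71 with EEF1D-1357 and of 0.80 and 1.95 with EEF1D-1893. The differences between the hairpins were 0.67 (SE 0.37, adjusted p = 0.750) for IL1A and 0.76 (SE 0.54, adjusted p = 0.762) for CXCL8. Of the 10 measured inducers, 6 had a higher mean with EEF1D-1357 than with EEF1D-1893. Only TNF was higher at an unadjusted p under 0.05, by 2.71 (SE 0.80, limma, adjusted p = 0.749), beside 2.59% of all genes. TNF read -7.36 and -6.74 on EEF1D-1893 replicates 1 and 2. The lowest values well above background on those arrays were -5.27 and -5.63, so the TNF difference includes background signal.

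The 22 genes that were not measured were ADAM1A, ADAM1B, ADAM2, ADAM3A, ADAM18, ADAM20, ADAM21, ADAM22, ADAM28, ADAM29, ADAM30 and ADAM33 among the ADAM genes. Several of these, such as ADAM2 and ADAM18, are known from the testis. The others were ADAMTS10, ADAMTS14, ADAMTS18, ADAMTS19, ADAMTS20, MMP3, MMP16, MMP19, MMP20 and MMP27. In 15 of the 22 no probe was well above background on any array, and in 7 a probe was so on 1 array.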

How the data were processed

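Levels came from 8 scanner files, 1 per array. Per the file headers, they hold Cy3 intensity, extracted by the authors with Agilent software of version 10.7.3.1 and background-subtracted there, while the submitters' processing notes name version 9.1; the well-above-background, outlier and saturation columns are flags with the values 0 and 1, per the file headers. The deposited value table of the series holds log2 values with near-identical quantiles on all arrays and was an alternative source only. The 75th percentile of each array, over all spots that are not controls, was subtracted from its log2 processed intensity. After that, 238 of 43653 probes with an outlier spot were left out. Of 43415 probes, 30702 were well above background on at least 2 arrays. Probes were named through RefSeq genes of the ARS-UCD2.0 assembly (26628 by their own accession, 9209 unnamed), which calls MMP23B MMP23; coordinates are those of the files (Btau 3.1), and the position of a probe in exons or untranslated regions was not analysed here.

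Group means were fitted over all 8 arrays for 12609 genes with limma 3.58.1 in R 4.3.3 (lmFit, eBayes; 5 residual and 2.13 prior degrees of freedom), two-sided, with Benjamini-Hochberg adjustment over all genes. The code was tested on simulated data. The 8 arrays limit the precision. Array values were printed for the TIMPs, for the members with the smallest p-values in each comparison (12 for both shRNAs against control, 5 in each of the others) and for the 8 members of highest mean signal, 20 genes in all; those of MMP2, MMP7 and MMP12 and the array pairs were chosen after their values were seen. From each list the 3 genes with the smallest p-values were named. The members and lists were chosen with earlier results of these data known. Alternatives were other background corrections, scalings, filters and probe rules, the deposited table, slide or replicate number as a block, each slide alone, another prior, another threshold, and leaving out each array.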

Additional observations from a re-analysis of the deposited data

Results flagged for a closer look

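One of the 4 MMP3 probes, A_73_P101196, had a scaled log2 signal of -1.34 on EEF1D-1893 replicate 3, against -7.80 to -7.12 on the other shRNA arrays and -7.97 and -7.69 on the controls. The scanner software marked that spot as an outlier, so the probe was left out of all comparisons. The other MMP3 probes were not well above background on any array.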

How the results depend on the processing

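The count of members past the test stayed at 0 in all 4 comparisons under every other background correction, scaling, filter, probe rule, source, prior and threshold that was tried, and with a replicate block. It changed with slide as a block, to 2 for both shRNAs (ADAM9 and ADAMTS12) and 4 for EEF1D-1893 (ADAM9, ADAMTS3, ADAMTS4 and ADAMTS12), which for EEF1D-1893 is the comparison without control replicate 2. Leaving out 1 array gave 0 to 9 for both shRNAs, 0 to 13 for EEF1D-1357, 0 to 4 for EEF1D-1893 and 0 between the hairpins; every count above 0 came without control replicate 2, and leaving out a control rests the spread on the other groups. The members' median log2 fold change was -0.21, -0.18, -0.16 and 0.08 in the 4 comparisons, and ranged over left-out arrays from -0.48 to 0.13, -0.24 to 0.14, -0.45 to 0.016 and 0.06 to 0.24. With slide as a block it was 0.14 for EEF1D-1357, -0.45 for EEF1D-1893 and 0.50 between the hairpins, and each slide alone gave 0.14 and -0.45. For EEF1D-1357 it was 0.26 with probes well above background on all 8 arrays, and for EEF1D-1893 -0.050 with normexp and -0.036 with no filter. Of 583 values of named members under 18 fits, 554 kept direction and call, 17 passed and 12 turned. For both shRNAs, TIMP4 turned to 0.040 with normexp and 0.037 with the replicate block, and ADAMTSL4 to 0.0051 with normexp, 0.067 with median scaling and 0.26 with the replicate block. Over left-out arrays ADAMTSL4 ranged from -0.16 to 0.19, MMP13 from -0.019 (without control replicate 1) to 2.89, TIMP1 from -0.87 to 0.13 and TIMP3 from -0.18 to 1.02 (the turned signs without control replicate 2). Same-numbered arrays deviated together with correlations of -0.11 to 0.14, so the numbers were not taken to pair the arrays. Signal over background limits the 14 measured members that were not well above it on all 8 arrays. The causes of these changes were not tested.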
